A study of Mus musculus with 2 samples.

Results

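Neutrophils carry ready-made proteins in granules that are filled one kind after another while the cell matures in the bone marrow, so the granule gene a cell transcribes marks how far it has matured. Azurophil granules are filled first, specific granules next and gelatinase granules last, and transcription of most granule genes has stopped by the time a neutrophil enters the blood. Mature neutrophils still hold large amounts of calprotectin transcripts.

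The 9 genes described here are *S100a8* and *S100a9*, the subunits of calprotectin, *Retnlg*, a resistin-like secreted protein of maturing and mature neutrophils, *Lcn2*, *Ngp*, *Camp* and *Ltf*, which encode specific granule proteins, and *Mmp8* and *Mmp9*, which encode the neutrophil collagenase and gelatinase B. They were taken by symbol from the 32589 genes of the count tables, and each symbol matched 1 gene. Their UMIs (unique molecular identifiers, 1 per captured transcript) were counted in cells gated as neutrophils by 12 other marker genes, none of them a member.

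Single-cell RNA-Seq was performed on CCA-bearing mouse livers, with 1 library per group. CCA had been induced by HDTVI of plasmids for NICD, an activated Notch receptor, and myr-AKT, an activated AKT kinase. Both groups had the shYT genotype, in which doxycycline switches on shRNAs against *Yap1* and *Wwtr1* under the ubiquitous CAG-rtTA3 driver, and both received doxycycline from day 25 and were analyzed on day 33. The shYT_PBS group received PBS and the shYT_antiPD1 group an antibody against PD-1 (antiPD1) on days 26, 29 and 32, and the labels give neither the shYT line nor the number of animals in a library. The study describes more than 1 animal per group for this experiment, and the files tie no cell to an animal. Without a replicate no test between the groups was possible. The values below describe these 2 libraries, and their 95% intervals cover counting error only.

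After removal of cells with fewer than 500 or more than 5000 detected genes or with more than 10% mitochondrial UMIs, 15531 cells of the PBS library and 16360 of the antiPD1 library remained. The gate named 979 neutrophils (6.30% of cells, 95% interval 5.93 to 6.70) in the PBS library and 2618 (16.0%, 15.4 to 16.6) in the antiPD1 library, a difference of 9.70 percentage points. These cells are neutrophil-like by their markers, and the other class names are meant in the same way. All 12 gate markers had UMIs in the gated cells of both libraries, but these markers had chosen the cells, so this is no separate check of the label. The median depth was 1586 UMIs per PBS neutrophil and 2072 UMIs per antiPD1 neutrophil. The libraries shared 219 cell barcodes. They also differed in sex-linked transcripts: PBS neutrophils held 187 *Xist* and 87 Y-linked UMIs, antiPD1 neutrophils 1 and 1474, so treatment and the sex of the animals cannot be told apart. Summed markers of mononuclear phagocytes stood at 951 and 1265 CPM (UMI counts scaled to a common total in each class) in PBS and antiPD1 neutrophils, and those of tumor and biliary cells at 636 and 340 CPM. The part of the phagocyte markers in the results was not tested.

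The promoters of several of these genes share a short sequence of the kind bound by C/EBP factors, which drive granule gene transcription in maturing neutrophils. Sequences from 250 bases upstream of the start were read from RefSeq (GRCm38.p6) for 8 genes, all but *Mmp9*. The letters TTGCNNAA, searched on both strands, were found in 6 of these 8 promoters (*Lcn2*, *Ltf*, *Mmp8*, *Ngp*, *Retnlg* and *S100a9*), against 9.56% of 32851 promoters. The letters GAGGAA, a core of PU.1 sites, were found in 4 of the 8 (*Lcn2*, *Ltf*, *Mmp8* and *S100a8*), against 23.3%. Both were chosen after the promoters had been read, and a match describes the letters, not a bound site or a cause. The C/EBP-type matches of 4 genes that behave differently below are shown on the strand of the gene, with the match in capitals.
Ngp, chr9:110419660-110419687, forward strand: tcctggtttaTTGCCCAAacctccttgc
Ltf, chr9:111019207-111019234, forward strand: ggcaggcctaTTGGGCAAtagggtgggg
Mmp8, chr9:7558400-7558427, forward strand: taggcagaagTTGCTCAAgatgtagctt
S100a9, chr3:90695940-90695967, reverse strand: gtaggctgtcTTGCTTAAgatttgggcg

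The match shown began 138 bases upstream of the RefSeq start of *Ngp*, 75 bases upstream of that of *Ltf*, 19 bases upstream of that of *Mmp8* and 236 bases upstream of that of *S100a9*. None of these 4 windows overlapped an annotated gene. *Ngp* held a second match, not shown, 11 bases upstream of its start in a window that overlapped the annotated *Ngp* gene itself. Several members are neighbours in the genome. *S100a8* and *S100a9* start 26.7 kb apart on chromosome 3. *Camp*, *Ngp* and *Ltf* lie in this order within 1195 kb of chromosome 9, with 570.1 kb between the starts of *Camp* and *Ngp* and 600 kb between those of *Ngp* and *Ltf*. None of the 9 overlaps another annotated gene.

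In neutrophils the 9 genes together took 9.69% of all UMIs with PBS and 9.61% with antiPD1. Most of this was calprotectin. With the level set as CPM of the summed neutrophil UMIs, 4 members were higher with antiPD1 (*S100a8*, *Ngp*, *Ltf* and *Mmp8*) and 5 were lower. Only *Camp* differed by 2-fold or more, 1 of 9, where 8.68% of the 7939 genes with at least 10 CPM in a library did so. A log2 ratio compares antiPD1 with PBS neutrophils, with 5 CPM added to each level. The median log2 ratio of the members was −0.05 and that of the 7939 genes −0.31, with 24.5% of them higher, so that a member near 0 stands above most genes. Scaling by the median ratio of all genes in place of the total moved the median of all genes by 0.41 on the log2 scale, to 0.11. It put 7 of the 9 members higher, with *S100a9* (0.43), *Retnlg* (0.13) and *Lcn2* (0.002, close to 0) changing direction. The share of all genes higher was not computed for this scaling. In the 61 PBS and 943 antiPD1 neutrophils with a Y-linked UMI but none of *Xist*, *S100a8* stood at a log2 ratio of 0.75, *S100a9* at 0.35, *Retnlg* at 0.35, *Lcn2* at 0.18, *Mmp8* at 0.56 and *Mmp9* at −0.21. *S100a9*, *Retnlg* and *Lcn2* were thus higher with antiPD1 among these cells. *Ngp* had 7 PBS and 3816 antiPD1 UMIs there (4.94, 3.97 to 6.05), *Ltf* 3 and 1014 (4.08, 2.74 to 5.52) and *Camp* 0 and 2506. Single antiPD1 neutrophils held up to 1756 *Ngp* UMIs, so the intervals, which count UMIs as independent, are too narrow for these genes. In the 175 PBS and 291 antiPD1 neutrophils with no UMI of T, B, NK, tumor, CAF or endothelial markers, *S100a9* stood at 0.28 and *Retnlg* at 0.08, again turned, *S100a8* at 0.28, *Lcn2* at −0.17, *Ngp* at 0.97, *Mmp8* at 1.06 and *Mmp9* at −0.76. *Camp* had 87 PBS and 1 antiPD1 UMIs there and *Ltf* 18 and 3.

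*S100a8* and *S100a9* encode the calcium-binding proteins that form calprotectin, a zinc- and manganese-sequestering antimicrobial complex released by activated neutrophils. *S100a8* stood at 48976 CPM (48645 to 49310) in PBS neutrophils and at 52902 CPM (52719 to 53085) in antiPD1 neutrophils, for a log2 ratio of 0.11 (0.10 to 0.12). *S100a9* stood at 34075 CPM (33799 to 34353) and 32914 CPM (32770 to 33059), for a log2 ratio of −0.05 (−0.06 to −0.04). They ranked first and second of all genes by summed UMIs in the neutrophils of both libraries. The number of *S100a8* UMIs per *S100a9* UMI was 1.44 in PBS and 1.61 in antiPD1 neutrophils. Calprotectin transcripts were spread over nearly every cell. Cells were thinned to 1000 UMIs each, and shallower ones, 82 PBS and 67 antiPD1 neutrophils, were left out of all thinned shares. Of the 897 PBS and 2551 antiPD1 neutrophils left, 98.2% and 98.0% had an *S100a8* UMI. The median neutrophil held 61 *S100a8* UMIs with PBS and 89 with antiPD1, where the gated neutrophils were deeper.

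*Retnlg* stood at 6429 CPM (6309 to 6551) in PBS and 5040 CPM (4984 to 5097) in antiPD1 neutrophils, for a log2 ratio of −0.35 (−0.38 to −0.32). This difference is close to the median of all genes. At 1000 UMIs per cell the share of neutrophils with a *Retnlg* UMI was 62.1% with PBS and 64.0% with antiPD1, with overlapping intervals. Its UMIs were unevenly divided: 30.5% of PBS and 34.7% of antiPD1 neutrophils held 90% of them.

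*Lcn2* encodes lipocalin-2, which binds bacterial siderophores and is made both in neutrophil precursors and in injured epithelium. Its level was 2921 CPM (2840 to 3003) in PBS and 2093 CPM (2057 to 2130) in antiPD1 neutrophils, for a log2 ratio of −0.48 (−0.53 to −0.43). The share of thinned neutrophils with a *Lcn2* UMI was 69.6% in PBS and 54.7% in antiPD1, 14.8 percentage points apart, against 3.79% and 4.44% in T cells.

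**Figure D1:**
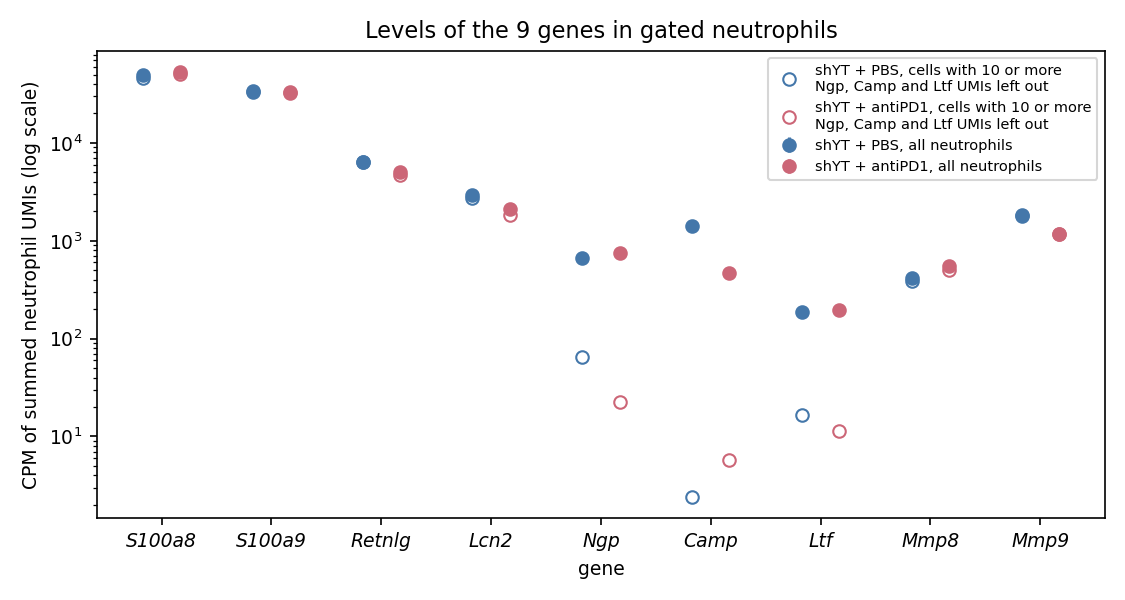
Level of each gene in gated neutrophils as CPM of summed UMIs on a log axis, PBS in blue and antiPD1 in red, with 95% Poisson intervals that are mostly smaller than the filled points. Open points leave out the neutrophils with 10 or more UMIs of *Ngp*, *Camp* and *Ltf*: only these 3 genes drop by an order of magnitude or more, *Camp* from 1413 to 2.43 CPM in the PBS library.

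*Ngp* (neutrophilic granule protein, a cystatin-like protein), *Camp* (cathelicidin, an antimicrobial peptide precursor) and *Ltf* (lactoferrin, which binds iron) mark the myelocyte and metamyelocyte stages. *Ngp* stood at 659 CPM (621 to 699) in PBS and 744 CPM (722 to 766) in antiPD1 neutrophils, for a log2 ratio of 0.17 (0.08 to 0.27). *Camp* stood at 1413 CPM (1357 to 1470) and 469 CPM (452 to 487), for a log2 ratio of −1.58 (−1.66 to −1.50). *Ltf* stood at 189 CPM (169 to 211) and 197 CPM (186 to 209), for a log2 ratio of 0.06 (−0.11 to 0.24). These sums came from very few cells, so the intervals, which count UMIs as independent, are too narrow for them.

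*Camp* UMIs were found in 13 of 979 PBS neutrophils (1.33%, 0.709 to 2.26) and in 36 of 2618 antiPD1 neutrophils (1.38%, 0.965 to 1.90). The shares of cells did not differ beyond counting error, while the level differed by a fold of 2.99. The 3 highest PBS cells held 864, 582 and 401 *Camp* UMIs, and the 3 highest antiPD1 cells 1307, 596 and 512. The 5 highest cells held 94.4% of the *Camp* UMIs of PBS neutrophils and 93.1% of those of antiPD1 neutrophils. The level of *Camp* therefore follows a handful of cells in a library.

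Neutrophils with at least 10 UMIs of *Ngp*, *Camp* and *Ltf* together, a limit set after the values were seen, numbered 10 in the PBS library (1.02% of neutrophils, 0.491 to 1.87) and 19 in the antiPD1 library (0.726%, 0.437 to 1.13). In the PBS library they held 90.4% of the *Ngp*, 99.8% of the *Camp* and 91.6% of the *Ltf* UMIs of neutrophils. In the antiPD1 library they held 97.0%, 98.8% and 94.4%. They carried far less of the other members, with 8.27% and 5.22% of *S100a8*, 10.2% and 14.8% of *Lcn2*, and 2.00% and 2.31% of *Mmp9* UMIs in PBS and antiPD1 neutrophils. Their median depth was 3884.5 UMIs in the PBS library and 3803 UMIs in the antiPD1 library, above that of all neutrophils.

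**Figure D2:**
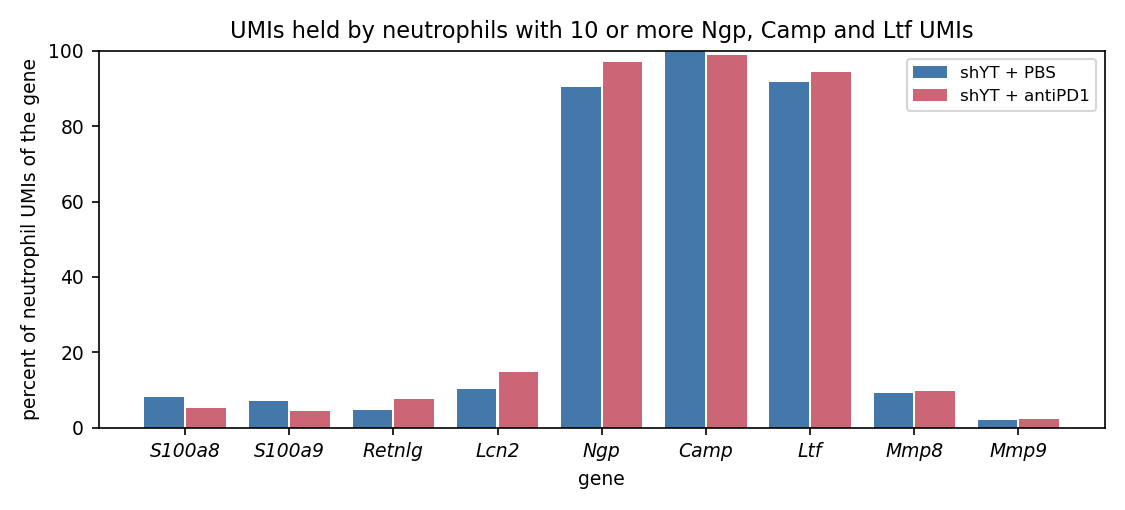
Share of the neutrophil UMIs of each gene (percent, linear axis from 0) that lay in the 10 PBS (blue) and 19 antiPD1 (red) neutrophils with 10 or more UMIs of *Ngp*, *Camp* and *Ltf*. The bars of these 3 genes, which chose the cells, exceed 90%, and those of the other 6 genes stay between 2.00% and 14.8%.

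Without these cells *Ngp* fell to 65.6 CPM in PBS and 22.6 CPM in antiPD1 neutrophils, and its log2 ratio was −1.36 (−1.69 to −1.02). *Camp* was left with 4 and 34 UMIs and a log2 ratio of 0.53 (−0.13 to 0.98), and *Ltf* with 27 and 67 UMIs and −0.39 (−0.89 to 0.12). The cells had been chosen by these 3 genes, so the choice itself bears on what is left of them, and the intervals of *Camp* and *Ltf* include 0. The *S100a8*, *S100a9*, *Retnlg*, *Lcn2*, *Mmp8* and *Mmp9* ratios kept their direction, at 0.14, −0.03, −0.41, −0.58, 0.39 and −0.62.

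The granule-rich cells were divided into 2 kinds by *Retnlg*, which had not chosen them. The limit of 10 *Retnlg* UMIs was not scaled for depth, so a shallow cell can fall under it by depth alone. With fewer than 10 *Retnlg* UMIs there were 7 PBS and 3 antiPD1 cells. Of these, 5 PBS and 2 antiPD1 cells had an *Mki67* UMI, a marker of dividing cells, and the cells of this first kind held 5 and 2 *Mmp8* UMIs. The first kind was not uniform: a PBS cell with 1876 UMIs in all and an antiPD1 cell with 1237 had no *Mki67*, *Chil3* or *Cebpe* UMI. With 10 or more *Retnlg* UMIs there were 3 PBS and 16 antiPD1 cells. None of these had an *Mki67* UMI, and they held 60 and 326 *Mmp8* UMIs, which is 4519 CPM (3449 to 5817) with PBS and 4624 CPM (4135 to 5154) with antiPD1. The first kind held 2362 of the 2404 *Camp* UMIs of PBS granule-rich cells and 1905 of the 2806 of antiPD1 ones. *Camp* stood at 53203 CPM in the first kind and 3164 CPM in the second in the PBS library, and at 41365 and 12779 CPM in the antiPD1 library. Single cells weighed in both kinds. In the antiPD1 cells of the first kind, *Camp* stood at 22832 CPM and *Lcn2* at 12655 CPM without the cell with most of its UMIs, and 1 PBS cell held all 5 *Mmp8* UMIs. In the second kind 1 cell held 41 of 42 *Camp* UMIs with PBS and 1 held 512 of 901 with antiPD1. Without that cell *Camp* stood at 92.9 and 6658 CPM. For *Mmp8*, 1 PBS cell held 55 of the 60 UMIs, and without it the level was 786 CPM.

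*Chil3*, a chitinase-like protein of late neutrophil precursors and macrophages, followed the first kind, at 9708 CPM in the PBS and 16372 CPM in the antiPD1 library, against 75.3 and 3787 CPM in the second kind, where 1 antiPD1 cell held 221 of 267 UMIs and the level without it was 787 CPM. *Cebpe*, the factor required for specific granule genes, was at 563 and 847 CPM in the first kind and had 0 and 5 UMIs in the second. Of its 39 antiPD1 UMIs in the first kind, 1 cell held 31, and the level without it was 379 CPM. *Lcn2* was high in both, between 6629 and 20541 CPM, and *S100a8* stood between 108240 and 164709 CPM.

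**Figure D3:**
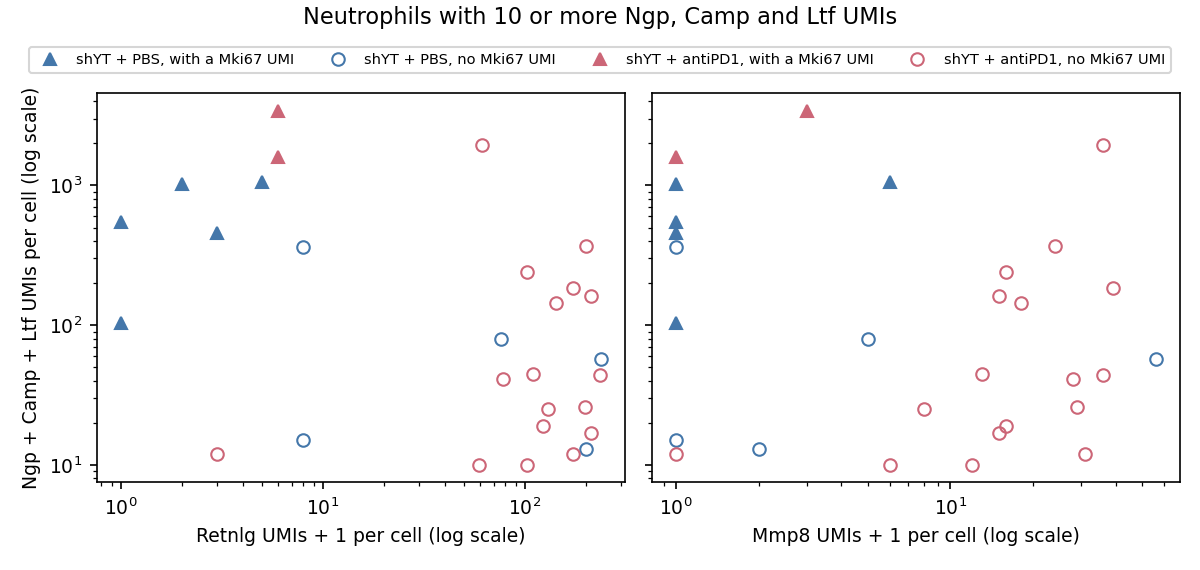
Each point is 1 of the 29 neutrophils with 10 or more UMIs of *Ngp*, *Camp* and *Ltf* (PBS blue, antiPD1 red, triangles with an *Mki67* UMI), with the sum of the 3 genes on the vertical axis and *Retnlg* (left) or *Mmp8* (right) UMIs plus 1 on the horizontal axis, all on log scales. The 7 cells with *Mki67* lie at the left, with at most 5 *Retnlg* UMIs, and none of the cells with 10 or more *Retnlg* UMIs has *Mki67*.

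At 1000 UMIs per cell, 5.35% of thinned PBS and 2.55% of thinned antiPD1 neutrophils had an *Ngp* UMI, against 0.216% and 0.396% of T cells at the same depth. Outside the granule-rich cells the shares were 38 of 887 PBS (4.28%, 3.05 to 5.83) and 46 of 2532 antiPD1 neutrophils (1.82%, 1.33 to 2.42). Of these PBS neutrophils with *Ngp*, 92.1% also had *Retnlg*, and of the antiPD1 ones 91.3%, against 60.7% and 63.3% of those without. Over all thinned neutrophils *Camp* accompanied *Ngp* in 8 of 48 PBS and 13 of 65 antiPD1 cells, nearly all of them granule-rich, and the removal of cells by their *Ngp*, *Camp* and *Ltf* UMIs leaves no reading of *Camp* in the others.

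*Mmp8* and *Mmp9* encode secreted matrix metalloproteinases, a collagenase stored in specific granules and a gelatinase stored in gelatinase granules, and they moved apart. *Mmp8* stood at 412 CPM (382 to 444) in PBS and 552 CPM (534 to 571) in antiPD1 neutrophils, for a log2 ratio of 0.42 (0.30 to 0.54). *Mmp9* stood at 1788 CPM (1725 to 1852) and 1182 CPM (1155 to 1210), for a log2 ratio of −0.59 (−0.66 to −0.53). The ratio of *Mmp9* to *Mmp8* UMIs was 4.34 in PBS and 2.14 in antiPD1 neutrophils.

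At 1000 UMIs per cell, *Mmp8* was detected in 21.9% of PBS and 29.3% of antiPD1 neutrophils and *Mmp9* in 73.9% and 60.8%. In T cells the shares were 0.216% and 0.763% for *Mmp8* and 2.07% and 3.25% for *Mmp9*. Both directions held in every alternative tried. Their UMIs were spread over more cells than those of *Ngp*, *Camp* and *Ltf*: 587 of 979 PBS and 1445 of 2618 antiPD1 neutrophils held 90% of the *Mmp9* UMIs, and 216 and 768 held 90% of the *Mmp8* UMIs. The 5 highest PBS cells held 17.7% of the *Mmp8* UMIs. *Mmp8* accompanied *Retnlg*, with 29.4% of *Retnlg*-positive against 9.41% of *Retnlg*-negative PBS neutrophils and 36.4% against 16.7% in the antiPD1 library.

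**Figure D4:**
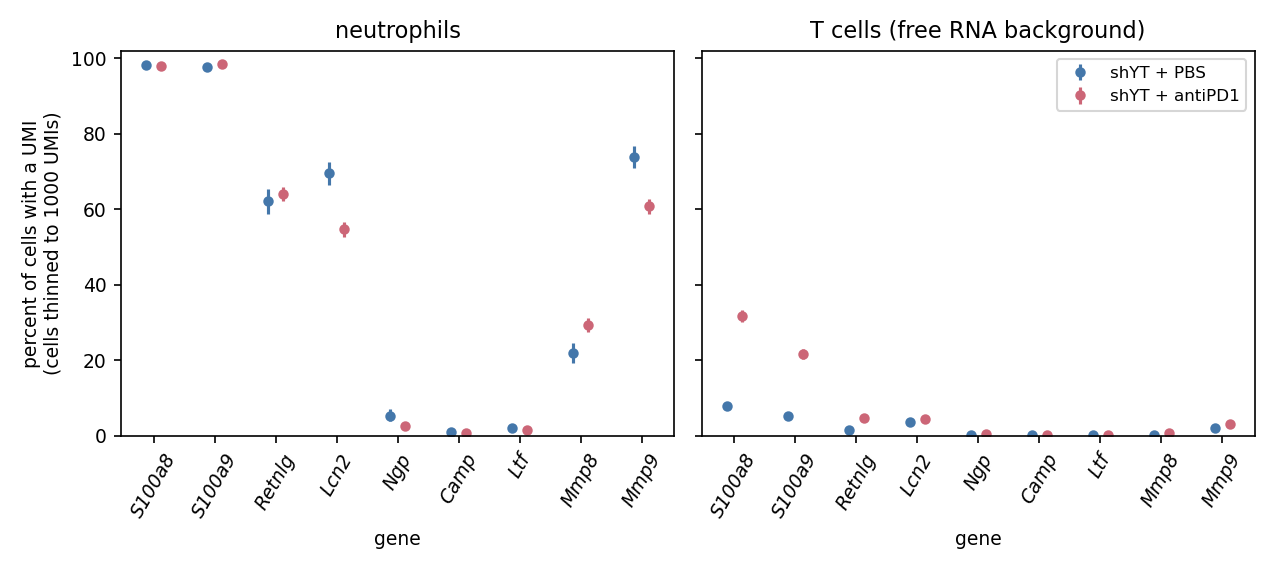
Percent of cells with a UMI of each gene after thinning to 1000 UMIs per cell, with exact binomial 95% intervals, in neutrophils (left) and in T cells as the free RNA background (right), PBS in blue and antiPD1 in red. In neutrophils the intervals of the 2 libraries are apart for 4 genes, *Lcn2*, *Ngp*, *Mmp8* and *Mmp9*, and in T cells *S100a8* reaches 7.99% and 31.8%. With all UMIs in place of thinned cells the number was 5, with *Retnlg* added. The share of all genes with intervals apart was not computed, so neither number sets the members apart from other genes.

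Calprotectin UMIs were found in every other class, and in T and B cells at higher levels in the library with more neutrophils. *S100a8* stood at 197 CPM in PBS and 822 CPM in antiPD1 T cells, 10.7% of thinned PBS and 34.6% of thinned antiPD1 B cells had an *S100a8* UMI, and *S100a9* was found in 5.27% and 21.7% of T cells. RNA from 1 source keeps its genes in 1 ratio, so each member was set against *S100a9* in a class and then divided by the same ratio in the neutrophils of that library. *S100a8* gave 1.09 (1.02 to 1.17) in PBS and 0.999 (0.972 to 1.03) in antiPD1 T cells, and 1.07 and 0.977 in B cells. *Retnlg* gave 0.726 (0.621 to 0.845) in PBS and 0.920 (0.864 to 0.978) in antiPD1 T cells, and 0.819 (0.566 to 1.16) and 1.14 (1.05 to 1.23) in B cells, so that 3 of its 4 intervals lay off 1, on either side. The PBS T cell interval of *S100a8* lay off 1 as well. Other members lay farther from 1 in T cells, with *Lcn2* at 5.27 in PBS and 1.81 in antiPD1, *Ngp* at 0.447 and 0.202 and *Camp* at 0.191 and 0.303, so the members were not all in the ratio of the gated neutrophils. T and B cells were used as the background for calprotectin and *Retnlg* and were not read as expressing them. PBS monocytes/macrophages had 1.65 (1.59 to 1.72) times the neutrophil ratio of *S100a8* to *S100a9*.

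*Lcn2* had its own source in the epithelium. Relative to *S100a9* it was 112 (103 to 122) times as high as in neutrophils in PBS tumor and biliary epithelial cells and 58.8 (54.6 to 63.4) times in antiPD1 ones. Its level there was 957 CPM (933 to 981) and 1225 CPM (1184 to 1267), for a log2 ratio of 0.36 (0.29 to 0.42), the opposite direction to neutrophils. *Lcn2* UMIs were seen in 746 of 1287 PBS and 515 of 754 antiPD1 tumor and biliary cells. Of all *Lcn2* UMIs in kept PBS cells, 35.5% lay in these cells and 28.3% in neutrophils. In the antiPD1 library the shares were 14.9% and 56.2%.

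The limits on cells removed further epithelial cells. Among the 670 PBS cells and 355 antiPD1 cells over 5000 genes with acceptable mitochondrial content, 390 and 103 were gated as tumor and biliary cells, and these held 13784 and 3434 *Lcn2* UMIs, or 1004 and 943 CPM. Cells removed for mitochondrial UMIs alone included 953 and 346 gated as tumor and biliary, with *Lcn2* at 665 and 979 CPM, and those under 500 genes 131 and 120, at 495 and 929 CPM. Cells past both upper limits stood at 975 and 970.5 CPM. The direction of the kept cells was thus seen in those removed for mitochondrial UMIs alone or under 500 genes, not in those over 5000. Over all classes, removed cells held 30563 PBS and 12996 antiPD1 *Lcn2* UMIs, and kept cells 17599 and 22535. In hepatocytes *Lcn2* stood at 517 CPM in 87 PBS cells and 2631 CPM in 26 antiPD1 cells, where 1 cell held 215 of 284 UMIs.

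*Mmp8* was also found in phagocytes. Relative to *S100a9* it was 21.2 (19.6 to 22.8) times the neutrophil value in PBS and 4.57 times in antiPD1 monocytes/macrophages, and 8.33 and 1.94 times in Kupffer cells. Its level in monocytes/macrophages, 31.7 CPM (29.6 to 33.8) and 23.4 CPM (19.8 to 27.4), was far under that of neutrophils. The PBS library had 3396 such cells at a median of 7422.5 UMIs, and they held 44.6% of its *Mmp8* UMIs, more than the 36.1% in neutrophils. In the antiPD1 library, with 1056 such cells, neutrophils held 75.4%. *Mmp9* gave 3.44 and 1.77 times the neutrophil ratio in T cells and 8.66 and 2.52 times in NK cells, at levels of 22.6 to 49.5 CPM.

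**Figure D5:**
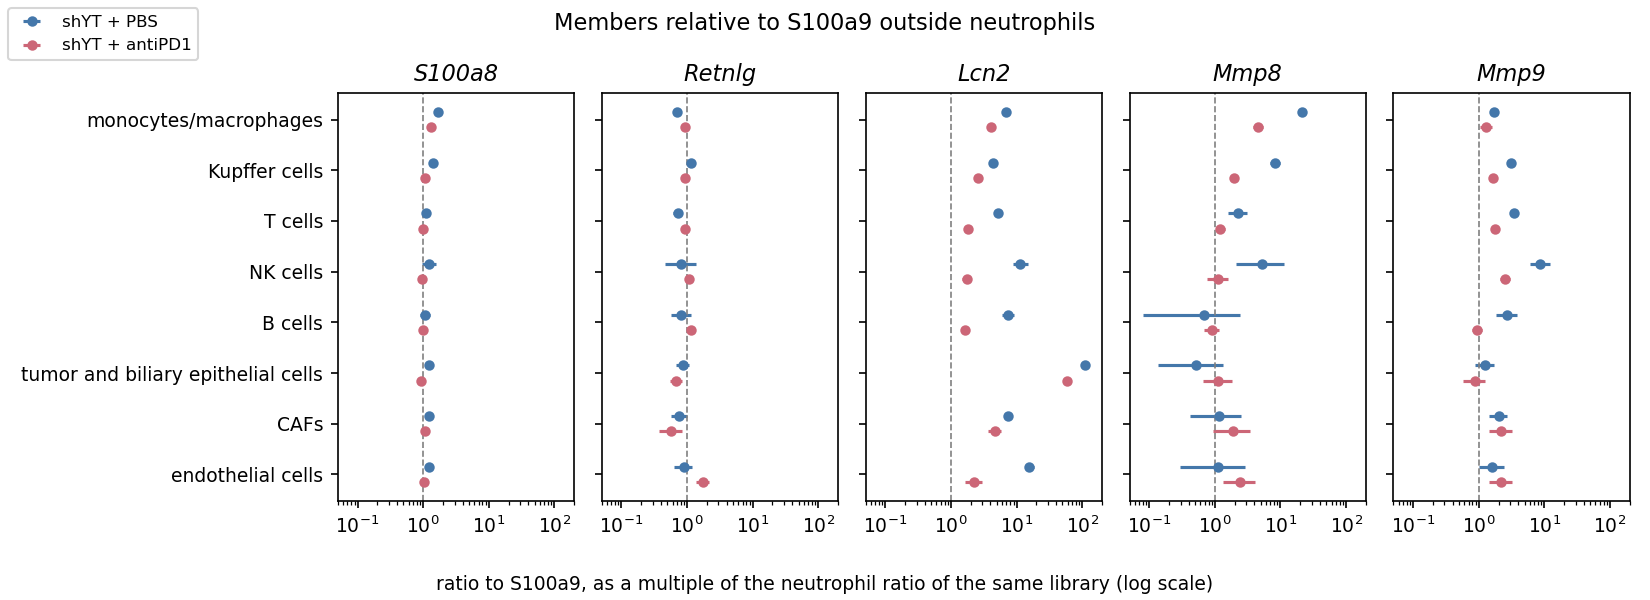
UMIs of 5 genes relative to *S100a9* in 8 other classes, as a multiple of the same ratio in the neutrophils of the same library (log axis, 95% intervals, dashed line at 1, PBS blue, antiPD1 red). *S100a8* lies between 0.919 and 1.65 and *Retnlg* between 0.568 and 1.75, *Lcn2* reaches 112 and 58.8 in tumor and biliary epithelial cells, and *Mmp8* reaches 21.2 in PBS monocytes/macrophages.

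The specific granule genes were also carried by single cells of other classes in the PBS library. In monocytes/macrophages, 1 cell held 990 of 1009 *Ngp* and 1507 of 1531 *Camp* UMIs. It had 22081 UMIs, 11 of 12 phagocyte markers and 6 neutrophil markers, and 32 *C1qa* UMIs. Without that cell the *Ngp* and *Camp* levels of the class fell from 36.8 and 55.9 CPM to 0.694 and 0.876 CPM. In the antiPD1 library 23 *Ngp* and 8 *Camp* UMIs were found in this class. In PBS Kupffer cells, 1 cell held 105 of 117 *Camp* and 46 of 52 *Ngp* UMIs. Only the second of these cells was among the 5% with the highest doublet scores of its library. Doublet detection marked no cell in either library, so the scores do not settle whether the first was a single cell.

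Other neutrophil genes were grouped in lists, described by counts of genes with at least 10 CPM in either library. The lists were chosen with earlier results of these data known, so their counts beside the shares of all genes are descriptions, not tests. Of the 7 genes of the azurophil granule list, which also held the precursor gene *Ms4a3*, 6 were at least 2-fold lower with antiPD1 (5.73% of all genes were). *Ctsc*, a protease that activates granule enzymes, was higher at 0.73. The median was −3.04, and *Elane*, neutrophil elastase, was lowest at −5.10. This rested on few PBS cells: 1 of the 979 neutrophils held 480 *Elane* and 404 *Mpo* UMIs, 74.0% of the UMIs of *Mpo*, *Elane*, *Prtn3*, *Ctsg* and *Ms4a3*. That cell held 25 *S100a8*, 2 *S100a9* and 2 *Lcn2* UMIs and none of *Ngp*, *Camp*, *Ltf*, *Retnlg*, *Mmp8* and *Mmp9*. Another, with 152 *Elane* and 76 *Mpo* UMIs, was among the granule-rich cells with 401 *Camp* UMIs. It was among the 5% with the highest doublet scores of its library, as was the PBS granule-rich neutrophil with 1876 UMIs in all. In the phagocyte classes, in ungated cells and in T and B cells the sum of these 5 genes was higher with antiPD1. It stood at 957 CPM in PBS and 26.4 CPM in antiPD1 neutrophils. In monocytes/macrophages it was 20.8 and 258 CPM, in Kupffer cells 33.2 and 69.4 CPM and in ungated cells 123 and 241 CPM. In T cells it was 3.53 and 17.6 CPM and in B cells 2.08 and 25.1 CPM, so the antiPD1 neutrophil level lay near that of B cells. Cells with at least 10 of these UMIs numbered 2 and 0 among neutrophils, 3 and 14 among monocytes/macrophages, 1 and 41 among Kupffer cells and 6 and 12 among ungated cells. The lower level in antiPD1 neutrophils is thus a value of the gated cells, not of the library.

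Of 16 further genes of specific and gelatinase granules or late precursors, 7 were higher (24.5% of all genes were) and 9 lower, with a median of −0.17 that turned to 0.31 under median-ratio scaling. This scaling also turned the median of all genes, from −0.31 to 0.11. *Adam8*, a membrane metalloproteinase, was highest at 1.24 and *Chil3* lowest at −2.13. Outside the granule-rich cells *Chil3* stood at 2176 CPM in PBS and 372 CPM in antiPD1 neutrophils. Of 5 measured transcription factors of granulopoiesis, 2 were higher (24.5% of all genes were), led by *Cebpb* at 1.35, and 3 were lower, led by *Cebpe* at −0.73. Their median of −0.39 turned to 0.015 under the same scaling. Of 13 genes listed for precursors, none a member, *Chil3* had the highest level, 2356 of 3920 summed CPM in PBS and 533 of 1074 in antiPD1 neutrophils. *Chil3* was also found in monocytes/macrophages (876 and 376 CPM) and T cells (56.3 and 22.4 CPM). No background share was computed for this list, so the shares that follow are no count of immature neutrophils. Cells with UMIs of at least 2 of the 13 genes made up 15.6% (13.3 to 18.2) of thinned PBS and 5.84% (4.96 to 6.82) of thinned antiPD1 neutrophils. *Ngp* stood at 1193 and 2671 CPM in these cells and at 74.0 and 33.3 CPM in the others. These include 7 of the 10 PBS and 13 of the 19 antiPD1 granule-rich cells, and without the granule-rich cells *Ngp* stood at 97.7 (52.0 to 167) and 58.8 (25.4 to 116) CPM, against 54.4 (39.0 to 73.8) and 18.4 (13.3 to 24.7) CPM in the others.

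All 12 interferon response genes were at least 2-fold higher with antiPD1 (2.95% of all genes were), with a median log2 ratio of 2.15, from 1.38 for *Irf1* to 3.48 for *Ifit2*. Of 17 measured genes of activated neutrophils, 14 were higher (24.5% of all genes were) and 9 of them at least 2-fold (2.95% of all genes). At least 2-fold lower were 2 of the 17 (5.73% of all genes), and the median was 1.06. *Cd274*, the gene of PD-L1, was highest at 2.80 and *Siglecf*, a marker of long-lived tumor neutrophils, lowest at −1.27. These differences were not particular to neutrophils. In PBS and antiPD1 monocytes/macrophages *Ifit2* stood at 37.6 and 184 CPM, *Irf1* at 87.6 and 327, *Cd274* at 27.5 and 140 and *Siglecf* at 3.25 and 1.86. In T cells *Ifit2* stood at 21.1 and 30.0 CPM, *Irf1* at 134 and 230 and *Cd274* at 25.2 and 61.8. The part of free RNA in these values was not tested. Of 11 chemotaxis and adhesion receptors, 7 were higher (24.5% of all genes were), with a median of 0.15 (0.63 under median-ratio scaling), the highest *Fcgr4* at 0.93 and the lowest *Ltb4r1*, a leukotriene B4 receptor, at −1.22. Among 3 measured receptors of member proteins, *Fpr2* was at 0.15, *Bsg* at −0.08 and *Tlr4* at −0.37, with a median that turned from −0.08 to 0.39 under median-ratio scaling, and the 2 measured metalloproteinase inhibitors *Timp2* and *Timp3* were at −0.32 and −0.71. Of 7 measured cell cycle genes, 3 were higher, beside the same 24.5%, and 4 lower, with *Mki67* lowest at −0.33 and *Top2a* highest at 0.55. Their median turned from −0.12 to 0.30 under median-ratio scaling, which turned that of all genes from −0.31 to 0.11.

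Signs of preparation were compared between the libraries as well. Of 14 dissociation stress genes 7 were higher (24.5% of all genes were) and 7 lower in antiPD1 neutrophils, with a median of 0.15 (0.63 under median-ratio scaling), *Hspa1a* highest at 1.56 and *Jun* lowest at −2.04. All 4 measured pancreatic acinar enzymes were higher (24.5% of all genes were), with *Try5* highest at 2.96 and *Prss2* lowest at 0.94. Summed over the list they stood at 8.80 CPM in PBS and 137 CPM in antiPD1 neutrophils. The gate markers themselves ranged from −0.76 for *Wfdc21* to 2.06 for *G0s2*. The part of these differences in the results on the 9 genes was not tested.

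Across 22 sums of a class in a library, the genes whose log2(CPM + 5) followed *S100a8* most closely, gate markers and members aside, were *Slfn4* (Pearson's r 0.946), *Il1f9* (0.919) and *Cstdc4* (0.919). For *Ngp* they were *Gm34589* (0.965), *Tarm1* (0.957) and, after these, *Gm2511*. The sums share 2 libraries and their free RNA, so these are descriptions. In neutrophils *Slfn4* stood at 692 CPM in PBS and 2150 CPM in antiPD1, for a log2 ratio of 1.63 where *S100a8* had 0.11.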

How the data were processed

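The authors deposited UMI counts for each gene and barcode, without normalization, and made them with the Singleron software against mm10. The submitters' processing notes name Seurat 4.3. The software version, annotation and strand handling are not given in the sources used here. In total, 121713441 UMIs in 19397 barcodes (PBS) and 100807037 UMIs in 19451 barcodes (antiPD1) were available.

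A cell took the class with the most marker genes with a UMI, out of 11 classes (12 markers each, 6 for basophils or mast cells), with at least 3 and a lead of at least 2. Mononuclear phagocytes with at least 2 Kupffer markers were set apart. UMIs were summed per class and library, with exact Poisson, Clopper-Pearson or binomial split intervals. Scrublet marked 0 cells as doublets in either library and so did not work on these data, and doublets were kept. Named genes were all members, the highest and lowest of each list, and the 3 genes most like *S100a8* and *Ngp*. Genes named beside single cells were chosen after their values were seen. The members and lists were chosen with earlier results of these data known. The calculation was tested on simulated counts with independent UMIs, which does not test the intervals of genes whose UMIs lie in a few cells. Python 3.11.15, numpy 2.4.6, scipy 1.17.1, pandas 2.3.3, scanpy 1.11.5 and matplotlib 3.10.9 were used.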

Additional observations from a re-analysis of the deposited data

How the results depend on the processing

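No paired analysis was possible because each group has 1 library. The directions of *S100a8* (log2 ratio 0.09 to 0.75 over 14 alternatives), *Mmp8* (0.35 to 1.06 over 15) and *Mmp9* (−0.76 to −0.11 over 15) held in all of them. *S100a9* kept its direction in 11 of 14, *Retnlg* in 12 of 15, *Lcn2* in 13, *Ngp* in 12, *Camp* in 13 and *Ltf* in 10. With median-ratio scaling, which put the median of all genes at 0.11, the number of members higher with antiPD1, 4 as reported, was 7. It was 2 with cells thinned to 1000 UMIs or with the mean of per-cell CPM, settings that both give deep cells less weight. It was 8 among cells with Y-linked UMIs but none of *Xist*, and 3 members then passed 2-fold. That setting left 61 PBS and 943 antiPD1 neutrophils. *Camp*, with 0 against 2506 UMIs there, turned to 7.65, a value set by the added 5 CPM, and it turned to 0.53 without the granule-rich cells. Neutrophils with no UMI of T, B, NK, tumor, CAF or endothelial markers, 175 and 291 cells, also had 3 members past 2-fold. No share of all genes was computed in these subsets of cells, so these counts do not set the members apart from other genes.

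The difference in neutrophil share, 9.70 points, was 8.78 with at least 200 genes and 11.1 with the gate on thinned cells. Of the ratios to *S100a9* outside neutrophils, 23 had intervals above 3 times the neutrophil value, and 58 without the granule-rich cells, a setting that lowers *Ngp*, *Camp* and *Ltf* in the neutrophils they are compared with. No such share was computed over all genes, so these counts only compare the settings. Genes past 2-fold numbered 689, and 1151 with 1 CPM added in place of 5. Leaving out the cells marked as doublets gave no value, since none were marked. Without the 5% highest doublet scores *Camp* stood at −1.32 and *Ngp* at 0.39, and no member changed direction. Leaving out the 5% highest doublet scores, the cells rich in granule genes, or the cell with most UMIs of a gene in either kind of them was chosen after seeing the data.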
